A study of Mus musculus with 18 samples.

Results

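The guide strands of the miR-99/100 and miR-125 families were followed in small RNA libraries of mouse neuroblastomas and normal adrenal glands. The members are the 5 rows of the deposited table, out of 1966 mature miRNAs, named mmu-miR-99a-5p, mmu-miR-99b-5p, mmu-miR-100-5p, mmu-miR-125a-5p and mmu-miR-125b-5p. The rule goes by name and uses no measured value, although it was set with earlier results of these data known. The control group AG holds 3 libraries of adrenal glands of wildtype mice labelled CRE -. The group TI holds 7 libraries of R26 IGF2BP1 neuroblastomas labelled CRE +, of which 1 was IGF2BP1 +/- and the others IGF2BP1 +/+. The group TIM holds 8 libraries of CRE + neuroblastomas with the genotype IMP1/MYCN, where IMP1 is another name of the RNA-binding protein IGF2BP1 and MYCN is a transcription factor of the MYC family. In both models human transgenes at the Rosa26 locus, IGF2BP1 without its native 3'UTR and in TIM also MYCN, were switched on by an iCRE recombinase under the Dbh promoter, which is active in the sympatho-adrenal lineage. The labels place 1 TI tumor and 2 TIM tumors in the adrenal gland and 1 TIM tumor at the spine. The table's columns give the group but not the mouse, so tumor site and the heterozygous mouse cannot be tied to a library, and mouse ages are not in the labels. The paper reports a shorter median survival of IGF2BP1/MYCN mice than of homozygous IGF2BP1 mice, so age may differ between the tumor types along with genotype. It places most IGF2BP1 tumors in the lower abdomen, while AG is adrenal gland. The part of age and site in the results was not tested. Libraries are numbered within a group only to name them.

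A miRNA hairpin is cut by Drosha and Dicer into a short duplex, of which one strand, the guide, is kept by an Argonaute protein, while the other, the passenger, is mostly degraded. Bases 2 to 8 of the guide, the seed, largely set which mRNAs it represses, so guides with the same seed form a family. The miR-99/100 family is known to target mTOR and other members of the growth factor signalling cascade, and miR-125, the mammalian relative of worm lin-4, is known for targets such as Lin28a and for roles in neuronal and blood cell differentiation. Both families are made from primary transcripts that also hold a let-7 hairpin. The RNA-binding proteins LIN28A and LIN28B are known to block the maturation of let-7, so 3 miRNAs cut from a common transcript need not change together.

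The mature sequences of the 5 members and of the 3 let-7 guides that share their transcripts are shown to make the families visible. They are those of RefSeq, in which all 5 members were found, written 5' to 3' with the seed in capitals.
miR-99a-5p: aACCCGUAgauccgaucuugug
miR-100-5p: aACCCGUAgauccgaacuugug
miR-99b-5p: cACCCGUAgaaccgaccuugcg
miR-125a-5p: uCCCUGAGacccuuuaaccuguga
miR-125b-5p: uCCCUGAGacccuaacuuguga
let-7a-5p: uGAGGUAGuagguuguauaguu
let-7c-5p: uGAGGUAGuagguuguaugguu
let-7e-5p: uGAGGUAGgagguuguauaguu

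With positions counted from 1 at the 5' end and the base of miR-99a-5p first, miR-100-5p differs from miR-99a-5p by U16A alone. The differences of miR-99b-5p from miR-99a-5p are A1C, U11A, U16C and U21C, all outside the seed. The miR-125 guides share their first 13 bases. Since a single base separates miR-99a-5p from miR-100-5p, reads with an error at that base can be counted for the wrong one of the pair, and the part this had in their values was not tested.

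The hairpins lie in 3 clusters on the plus strand of the RefSeq assembly GRCm38.p6. The chromosome 17 cluster, chr17:17830188-17830879, holds Mir99b, Mirlet7e and Mir125a within 692 bp of the protein-coding gene Spaca6, where GENCODE on GRCm39 places Mir125a on an exon of at least 1 transcript and the other two in introns. The chromosome 16 cluster, chr16:77598936-77646343, holds Mir99a, Mirlet7c-1 and Mir125b-2 over 47408 bp, in introns of the long non-coding RNA gene Mir99ahg by GENCODE. The chromosome 9 cluster, chr9:41531425-41582002, holds Mir100, Mirlet7a-2 and Mir125b-1 over 50578 bp, in introns of the long non-coding RNA gene Mir100hg. Mir125b-1 also overlaps an exon of the long non-coding RNA gene Gm28119. The guide of Mir125b-1 and Mir125b-2 is the same molecule, so the row of miR-125b-5p sums both clusters. The guides let-7a-5p and let-7c-5p are likewise also made from hairpins elsewhere in the genome, while miR-99a-5p, miR-99b-5p, miR-100-5p, miR-125a-5p and let-7e-5p each have 1 hairpin here.

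Values are CPM, the reads of a miRNA scaled to a fixed library size, which the authors computed by dividing by the library total times a TMM factor. The libraries held 21644743 to 23332704 miRNA reads in AG, 11802837 to 21268124 in TI and 11641696 to 23435621 in TIM. No member had fewer than 3682 reads in any library, so counting error is small beside the spread between libraries. A single miRNA, miR-148a-3p, took 4.19% to 6.94% of the reads in AG, 2.29% to 61.9% in TI and 6.53% to 44.2% in TIM, so levels depend on how libraries are scaled. TI library 5, with 2.29%, stood apart from the other TI libraries in this. The limma test of log2(CPM + 1) covered 726 miRNAs, at a Benjamini-Hochberg adjusted p-value under 0.05. The libraries are of separate samples, but nothing ties them to mice, and p-values measure the spread between these samples. The paper reports more tumors than animals for the IGF2BP1/MYCN mice, so some TIM libraries may come from the same mouse. The tests take each library as independent. Bulk RNA cannot tell fewer cells of a type from less RNA per cell. Of the cell type marker miRNAs, the summed CPM of 2 endothelial ones was 38529 to 46092 in AG, 1704 to 6736 in TI and 2428 to 8943 in TIM, without overlap of AG and tumors. The sum of 4 leukocyte ones also lay higher in AG, with 414 to 602 CPM against 51.1 to 333 in TI and 67.5 to 212 in TIM. That of 4 smooth muscle and fibroblast ones was 122849 to 210442 CPM in AG, 16039 to 171483 in TI and 16156 to 101726 in TIM, nearly all of it miR-143-3p. Among these, miR-199a-3p lay wholly apart, with 1200 to 1514 CPM in AG, 221 to 790 in TI and 122 to 728 in TIM. The sum of 4 neuroendocrine and neuronal ones was 45274 to 108206 CPM in AG, 32418 to 250110 in TI and 43408 to 247553 in TIM, with miR-7a-5p the most abundant by median, and its members differed in direction. The neuronal miR-9-5p was higher in all tumor libraries, with 362 to 582 CPM in AG against 3748 to 13089 in TI and 4330 to 18823 in TIM, as was miR-124-3p, with 2.17 to 7.08 CPM against 34.1 to 492.8 and 56.2 to 728. The median of miR-375-3p was 26553 CPM in AG, 5166 in TI and 7471 in TIM, with overlapping ranges. The sum of 2 erythroid ones overlapped between all groups. No marker was at 0 in any library, and the part of these cell types in the results below was not tested.

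All members were lower in both tumor types than in the adrenal gland. Together they took 6.08 ± 0.57% of all miRNA reads in AG (SD, n = 3), 1.25 ± 0.37% in TI (SD, n = 7) and 2.25 ± 0.63% in TIM (SD, n = 8). In TI, 5 of 5 members fell at the threshold and 5 of 5 had every TI library below every AG library, where 29.3% of all tested miRNAs fell, 55.8% passed in either direction and 24.4% lay apart in this way. In TIM, 5 of 5 fell and 4 of 5 lay apart, against 25.9% of all tested miRNAs that fell, 51.4% that passed in either direction and 22.0% that lay apart. The members' median log2 fold change was -1.63 in TI and -2.03 in TIM, beside -0.01 and 0.18 over all tested miRNAs. Of all called miRNAs, 47.4% were higher in TI and 49.6% in TIM, which became 59.7% and 66.4% with totals that omit miR-148a-3p. Here and below, that scaling also leaves out the TMM factor, so its effect is not that of miR-148a-3p alone. Both comparisons use the same AG libraries and are therefore not independent of each other. The count of members that passed depends on the scaling: with totals that omit miR-148a-3p, 3 of 5 members passed in TI and 2 of 5 in TIM, and without the TMM factor 3 of 5 passed in TIM. Without AG library 1, 2 of 5 passed in TIM. Without TI library 5 and TIM library 1, 5 of 5 passed in each comparison with AG.

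**Figure D1:**
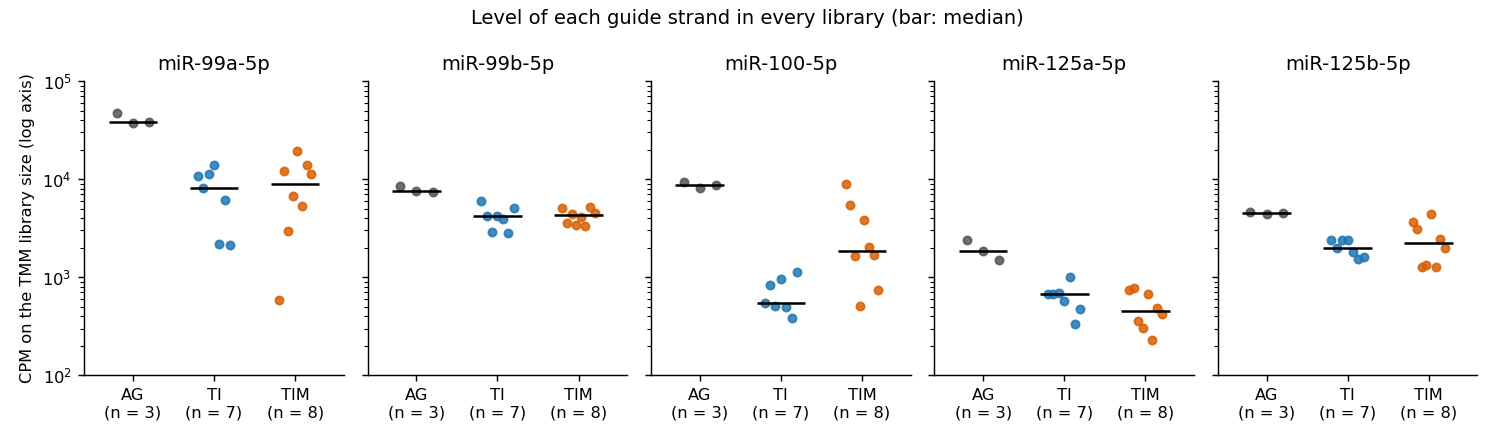
CPM of the 5 guide strands (log axis) in every library of AG, TI and TIM, with 1 point per library and a bar at the median. The AG points lie above all tumor points in each panel except that of miR-100-5p, where TIM library 1 with 8962 CPM reaches into the AG range.

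Among the miR-99/100 guides, miR-99a-5p was the most abundant in AG, with 47651, 37151 and 38185 CPM. It ran from 2137 to 13931 CPM in TI, with a median of 8086, and from 588 to 19560 CPM in TIM, with a median of 8997. All tumor libraries lay below the AG libraries, but the tumors themselves differed widely, with a ratio of the highest to the lowest of 6.52 in TI and 33.3 in TIM against 1.28 in AG. The change in log2(CPM + 1) was -2.69 in TI (standard error 0.84, limma adjusted p = 0.011) and -2.70 in TIM (standard error 0.82, limma adjusted p = 0.011), which is 6.46-fold and 6.52-fold lower. In TIM the adjusted p was 0.052 without AG library 1.

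The guide miR-100-5p, the nearest relative of miR-99a-5p in sequence, had 9457, 8113 and 8691 CPM in AG. In TI it fell to between 388 and 1128 CPM, with a median of 542. In TIM it ran from 504 to 8962 CPM, with a median of 1857. All TI libraries were low, while TIM libraries spread from the TI level to that of the adrenal gland. In TI the log2 fold change was -3.75 (standard error 0.66, limma adjusted p = 0.00013), the largest fall among the members, and -2.05 in TIM (standard error 0.65, limma adjusted p = 0.014). In TIM the adjusted p was 0.057 without AG library 1 and 0.069 with totals that omit miR-148a-3p.

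The third guide of the family, miR-99b-5p, changed least. It had 8562, 7506 and 7401 CPM in AG, 2818 to 6010 CPM in TI with a median of 4177, and 3345 to 5200 CPM in TIM with a median of 4269. The tumor libraries of both types lay below AG and close to each other. In TI the log2 fold change was -0.95 (standard error 0.26, limma adjusted p = 0.0046) and -0.91 in TIM (standard error 0.25, limma adjusted p = 0.0061). With totals that omit miR-148a-3p it was -0.42 in TI (limma adjusted p = 0.24) and -0.31 in TIM (limma adjusted p = 0.38), and without the TMM factor -0.56 in TIM (limma adjusted p = 0.093), so the fall of miR-99b-5p depends on the scaling.

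Of the miR-125 guides, miR-125a-5p had 2376, 1833 and 1513 CPM in AG. It had 334 to 1013 CPM in TI, with a median of 673, and 229 to 770 CPM in TIM, with a median of 453. No tumor library reached the lowest AG library. In TI the log2 fold change was -1.63 (standard error 0.38, limma adjusted p = 0.0018) and -2.03 in TIM (standard error 0.38, limma adjusted p = 0.00021). This fall passed the threshold in every alternative run and without each library in turn.

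The guide miR-125b-5p had 4605, 4439 and 4526 CPM in AG, the narrowest AG range of the members. It had 1523 to 2383 CPM in TI, with a median of 1988, and 1268 to 4397 CPM in TIM, with a median of 2219. The highest TIM library fell just short of the lowest AG library. In TI the log2 fold change was -1.19 (standard error 0.36, limma adjusted p = 0.010) and -1.05 in TIM (standard error 0.36, limma adjusted p = 0.021). With totals that omit miR-148a-3p the limma adjusted p was 0.10 in TI and 0.26 in TIM, and in TIM it was 0.070 without the TMM factor. In TIM miR-125b-5p missed the threshold whichever AG library was left out (limma adjusted p up to 0.071), and passed without each TIM library.

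**Figure D2:**
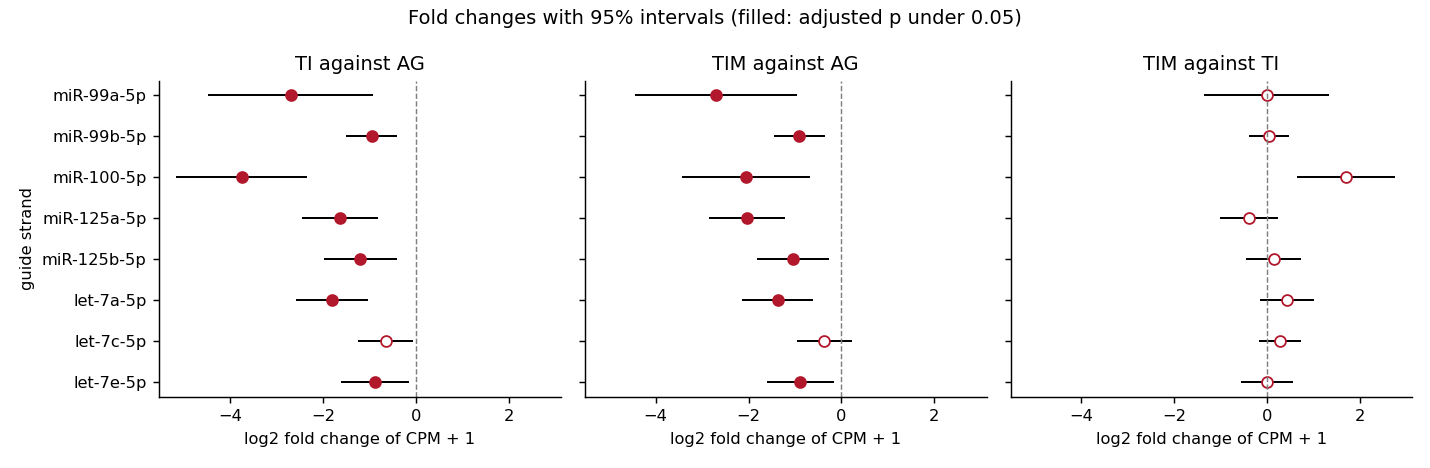
Log2 fold change of CPM + 1 with its 95% interval from limma for the 5 members and 3 let-7 guides in the 3 comparisons, with filled points at an adjusted p under 0.05. The 5 members lie left of 0 in both comparisons with AG, while between TIM and TI the interval of miR-100-5p alone among them lies off 0 and its adjusted p is 0.051.

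Between the tumor types, limma called 0 of 5 members, beside 5.23% of all tested miRNAs, or 38, of which 65.8% were higher in TIM (48.1% with median ratio scaling and 89.0% without the TMM factor). At an unadjusted p under 0.05 it was 1, miR-100-5p. DESeq2 on the recovered reads called 1 and edgeR's quasi-likelihood test 0. Without the TMM factor limma called 3, namely miR-100-5p, miR-99b-5p and miR-125b-5p. The log2 difference of miR-100-5p, TIM over TI, was 1.70 (95% interval 0.66 to 2.73, limma adjusted p = 0.051), on the edge of the threshold. It passed with DESeq2 (adjusted p = 0.0012), without the TMM factor (limma adjusted p = 0.012) and in 3 further settings, and its adjusted p was 0.097 without TI library 5 and TIM library 1. For the other members the intervals were -1.33 to 1.303 for miR-99a-5p, -0.36 to 0.44 for miR-99b-5p, -1.002 to 0.20 for miR-125a-5p and -0.43 to 0.72 for miR-125b-5p. That of miR-99a-5p is the widest of these, since its level varied most between tumors.

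The order of the levels was fixed in AG and loosened in the tumors. A read covers a whole mature miRNA, so no scaling to length is needed, although the ligation of adapters is known to favour some ends over others. In all 3 AG libraries miR-99a-5p led, followed by miR-100-5p, miR-99b-5p, miR-125b-5p and miR-125a-5p, and the pair miR-100-5p and miR-99b-5p differed by only 0.16 ± 0.06 (SD, n = 3) in log2 of the ratio. In TI the order by mean was miR-99a-5p, miR-99b-5p, miR-125b-5p, miR-100-5p and miR-125a-5p. There miR-99a-5p exceeded miR-99b-5p in 5 of 7 libraries, and miR-100-5p exceeded miR-125a-5p in 4 of 7, so neither pair differed beyond its spread. In TIM miR-99a-5p exceeded miR-99b-5p in 6 of 8 libraries, and miR-100-5p exceeded miR-125b-5p in 4 of 8, while miR-125b-5p exceeded miR-125a-5p in 8 of 8.

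The makeup of the miR-99/100 family varied from tumor to tumor. The share of miR-99a-5p in the family's CPM was 71.1 ± 1.3% in AG (SD, n = 3), 56.8 ± 19.8% in TI (SD, n = 7) and 51.7 ± 22.9% in TIM (SD, n = 8). In TIM library 1 it was 4.01%, and miR-100-5p made up 61.1%, where miR-100-5p had 3.13% to 13.5% in TI. Without that library the mean share of miR-99a-5p in TIM was 58.5%. The share of miR-99b-5p was 13.6 ± 0.6% in AG, 37.0 ± 16.9% in TI and 28.9 ± 10.8% in TIM. In the miR-125 family, miR-125b-5p made up 70.6 ± 4.5% in AG, 76.3 ± 5.8% in TI and 82.6 ± 2.7% in TIM, and all 8 TIM libraries, from 78.3% to 86.8%, lay above the highest AG library at 74.9%.

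**Figure D3:**
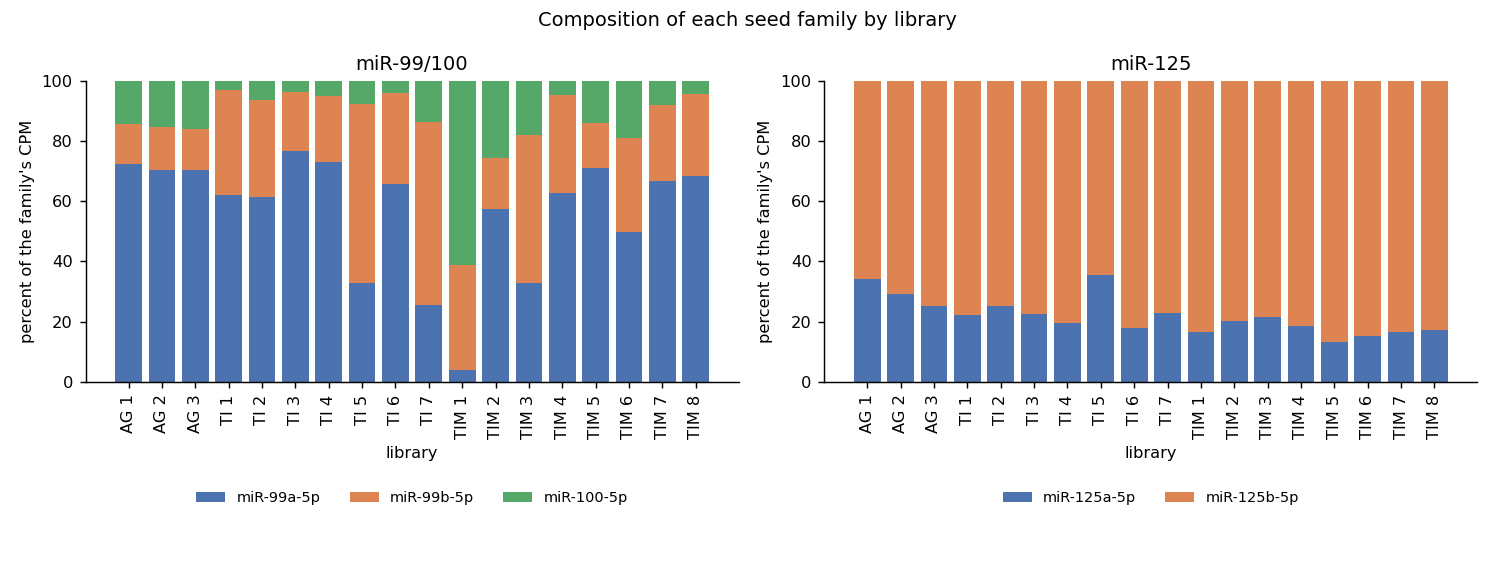
Share of each guide in the summed CPM of its seed family, in percent, with 1 stacked bar per library. The 3 AG bars of miR-99/100 look alike with 70.4% to 72.6% miR-99a-5p, the tumor bars differ from each other, and TIM library 1 stands out with 61.1% miR-100-5p.

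Ratios of guides inside a library do not depend on the scaling of the library. All but 1 set guides with a hairpin in the same cluster against each other, while miR-99a-5p to miR-100-5p joins guides of different clusters. Only the ratios of the chromosome 17 cluster compare neighbours on a transcript alone. Those with let-7a-5p, let-7c-5p or miR-125b-5p also count guides made from hairpins elsewhere. In all, 8 ratios were compared between the 3 groups with a two-sided exact permutation test over libraries, and p-values were adjusted over these 24 tests. The smallest p is 0.017 for TI against AG and 0.012 for TIM against AG. At an adjusted p under 0.05, 5 of 8 ratios differed between TI and AG, 3 of 8 between TIM and AG and 2 of 8 between TIM and TI. These calls are close to the limit of the design: each comparison with AG rests on 3 libraries, and with the p taken from the absolute difference none passed, the lowest adjusted p then being 0.050. None passed between TI and AG without 1 library in 9 of 10 cases, all but TI library 6. Between TIM and AG none passed when 1 AG library was left out. Without an AG library this outcome was fixed by the design, since the smallest possible p is too large to pass after adjustment over 24 tests. These cases therefore cannot show a dependence on a particular AG library. Between TIM and TI none passed without 1 library in 6 of 15 cases, each of the TI libraries except TI library 6. Without 1 TI library the smallest p between TI and AG also rises, and the joint adjustment over 24 tests can move the other comparisons with it. The called ratios kept their direction in all these cases. Whether single TI libraries played a part beyond this was not tested.

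In the compact chromosome 17 cluster, miR-125a-5p fell relative to let-7e-5p in both tumor types, while no difference in the ratio of let-7e-5p to miR-99b-5p was detectable. The ratio of let-7e-5p to miR-99b-5p was 0.119, 0.118 and 0.113 in AG. It ran from 0.0865 to 0.236 in TI, with a median of 0.103, and from 0.0744 to 0.265 in TIM, with a median of 0.107. The AG libraries sat inside the range of the tumors, and the log2 difference was 0.07 in TI (exact permutation p = 0.90) and 0.03 in TIM (exact permutation p = 0.99), with a spread between tumors of 0.52 (SD, n = 7) and 0.66 (SD, n = 8). The ratio of let-7e-5p to miR-125a-5p was 0.427, 0.483 and 0.552 in AG, 0.620 to 1.15 in TI with a median of 0.804, and 0.831 to 1.52 in TIM with a median of 1.05. All tumor libraries lay above all AG libraries. The log2 difference was 0.76 in TI and 1.15 in TIM (exact permutation p = 0.017 and 0.012, each the smallest the design allows, adjusted p = 0.040 for both). Between TIM and TI it was 0.39 (exact permutation p = 0.027, adjusted p = 0.055). The ratio of miR-125a-5p to miR-99b-5p had log2 differences of -0.68 in TI (exact permutation p = 0.10, adjusted p = 0.17) and -1.12 in TIM (exact permutation p = 0.024, adjusted p = 0.053).

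In the chromosome 16 cluster the guide of the first hairpin fell further than those of its neighbours. The ratio of let-7c-5p to miR-99a-5p was 0.347, 0.302 and 0.270 in AG. It ran from 0.589 to 4.88 in TI, with a median of 0.860, and from 0.567 to 24.2 in TIM, with a median of 1.13, the highest value being that of TIM library 1. No tumor library overlapped with AG, while TI and TIM overlapped with each other, and the log2 difference from AG was 2.05 in TI and 2.34 in TIM (exact permutation adjusted p = 0.040 for both), or 1.77 in TIM without TIM library 1. The ratio of miR-125b-5p to miR-99a-5p rose likewise, from 0.0966 to 0.119 in AG to a range of 0.171 to 0.847 in TI, while the TIM libraries spanned 0.176 to 6.27. Its log2 difference was 1.503 in TI and 1.66 in TIM (exact permutation adjusted p = 0.040 for both), or 1.06 in TIM without TIM library 1. Since let-7c-5p and miR-125b-5p also come from hairpins elsewhere, these ratios do not belong to the chromosome 16 transcript alone. Among the passengers of this cluster, given below, miR-99a-3p did not show the largest fall, but it had few reads, which understates changes in log2(CPM + 1).

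In the ratios to miR-100-5p of the chromosome 9 cluster the tumor types differed, with overlapping ranges. Since miR-125b-5p and let-7a-5p also come from hairpins elsewhere, these ratios do not belong to the chromosome 9 transcript alone. The ratio of miR-125b-5p to miR-100-5p was 0.487, 0.547 and 0.521 in AG. It was 1.43 to 4.62 in TI, with a median of 3.71, and 0.411 to 2.72 in TIM, with a median of 0.964. TI lay wholly above AG, with a log2 difference of 2.56 (exact permutation adjusted p = 0.040), while TIM overlapped with AG, with 1.01 (exact permutation p = 0.11, adjusted p = 0.17). Between TIM and TI the log2 difference was -1.56 (exact permutation p = 0.0062, adjusted p = 0.040). The ratio of let-7a-5p to miR-100-5p gave the same picture, with 1.09, 0.910 and 0.738 in AG, 2.31 to 7.23 in TI and 0.507 to 4.31 in TIM. Its log2 difference was 1.95 in TI (exact permutation adjusted p = 0.040), 0.68 in TIM (exact permutation adjusted p = 0.45) and -1.28 between TIM and TI (exact permutation p = 0.016, adjusted p = 0.040). Without TI library 5 and TIM library 1 the differences between TIM and TI were -1.32 (exact permutation adjusted p = 0.057) and -0.89 (exact permutation adjusted p = 0.0999). The ratio of miR-99a-5p to miR-100-5p, which joins guides of the chromosome 16 and chromosome 9 clusters, was 4.39 to 5.04 in AG. It was 1.90 to 22.1 in TI and 0.0656 to 15.4 in TIM, and passed in no comparison (exact permutation adjusted p of 0.17 to 0.95).

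**Figure D4:**
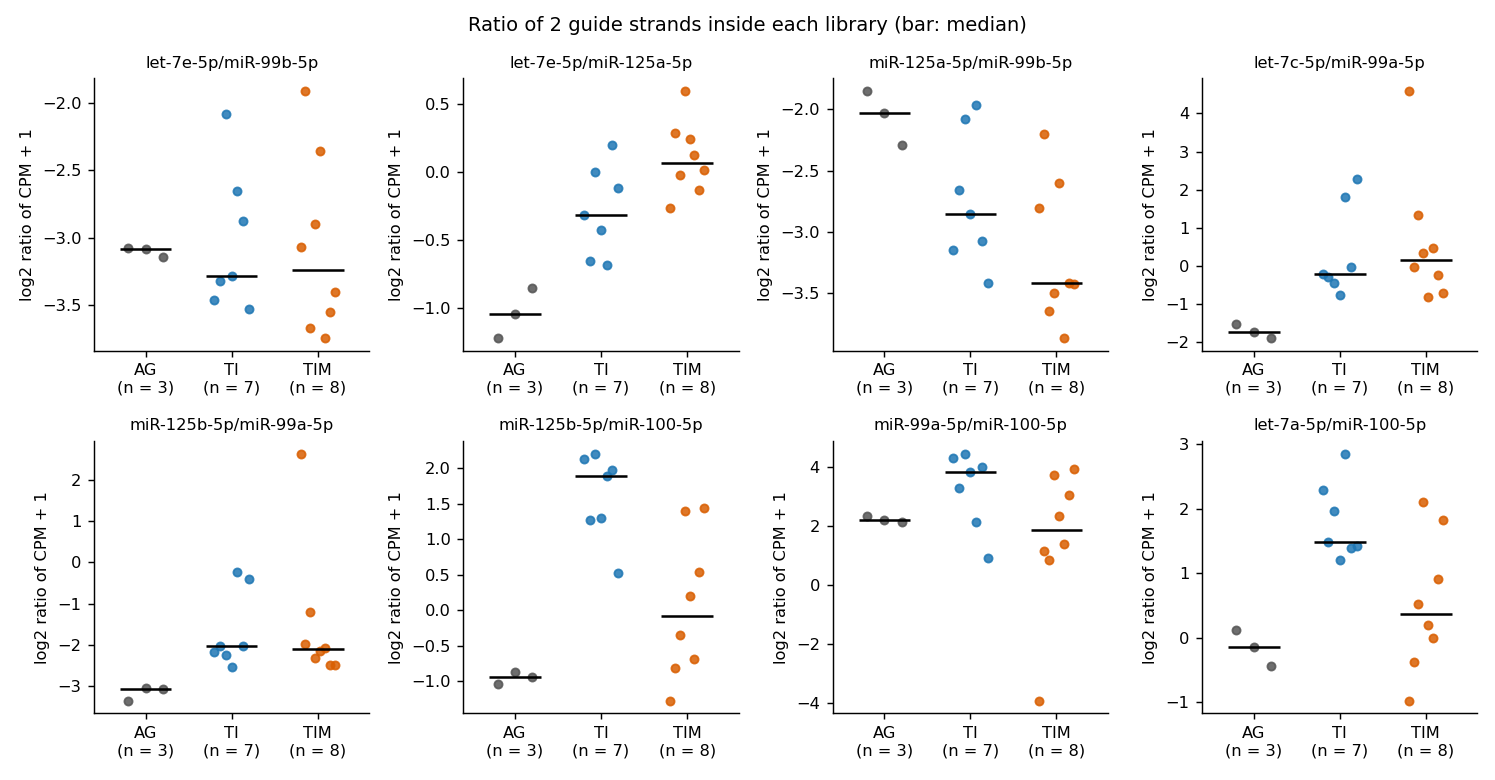
Log2 ratio of CPM + 1 of 2 guide strands inside each library, for the 8 ratios, with 1 point per library and a bar at the median. Every tumor point of let-7e-5p to miR-125a-5p, let-7c-5p to miR-99a-5p and miR-125b-5p to miR-99a-5p lies above the AG points, while those of let-7e-5p to miR-99b-5p lie on both sides of them.

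Of the 3 let-7 guides of these transcripts, 2 of 3 fell in each tumor type, beside 29.3% of all tested miRNAs in TI and 25.9% in TIM. The log2 fold change of let-7a-5p was -1.80 in TI and -1.38 in TIM (limma adjusted p = 0.00042 and 0.0035). That of let-7e-5p was -0.88 in TI and -0.88 in TIM (limma adjusted p = 0.037 and 0.036). For let-7c-5p it was -0.64 in TI and -0.37 in TIM (limma adjusted p = 0.053 and 0.26), the latter turning to 0.23 with totals that omit miR-148a-3p. The sequence of let-7e-5p differs from let-7a-5p by U9G and that of let-7c-5p from let-7a-5p by A19G, with the base of let-7a-5p first, so these rows too are separated by 1 base.

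The passenger strands are the other product of the same hairpins, at far lower read counts. Of 9 passenger strands of the 3 clusters, 7 had enough reads to be tested, of which 4 fell in TI and 3 in TIM. Of all tested miRNAs, 29.3% fell in TI and 25.9% in TIM, so these counts alone do not set the passengers apart. The passenger let-7e-3p fell by 1.82 in TI and by 1.89 in TIM on the log2 scale (limma adjusted p = 0.00060 and 0.00037). The passengers miR-125a-3p, at -1.03 and -0.99 (limma adjusted p = 0.0088 and 0.012), and miR-99a-3p, at -0.87 and -0.94 (limma adjusted p = 0.018 and 0.012), also fell in both. In contrast, miR-99b-3p had log2 fold changes of -0.08 in TI and -0.11 in TIM (limma adjusted p = 0.81 and 0.74), with a 95% interval of -0.63 to 0.46 in TI and -0.65 to 0.42 in TIM. The sign of miR-99b-3p turned with the scaling. The passenger let-7c-1-3p had log2 fold changes of -0.53 in TI and -0.12 in TIM (limma adjusted p = 0.27 and 0.82), and its values under the alternatives are not given. The passenger miR-100-3p had 21 to 28 reads in AG, 0 to 2 in TI and 0 to 28 in TIM, and let-7a-2-3p had 15 to 26, 0 to 2 and 0 to 26. Neither reached the filter of at least 1 CPM in at least 3 libraries, and a count of 0 allows up to 3 reads, which is 0.101 to 0.272 CPM in the tumor libraries.

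The number of guide reads per passenger read of a hairpin, a measure chosen after values were seen and given without a test here, differed between hairpins of a cluster. For miR-99b it was 25.2, 26.8 and 25.4 in AG, 7.91 to 17.4 in TI and 12 to 17.9 in TIM, so guide and passenger parted in all tumors. For let-7e in the same cluster it moved the other way, from 30.3, 30.4 and 35.4 in AG to 43.9 to 104 in TI, and the TIM libraries had 63.5 to 91.2. For miR-125a it overlapped between the groups, with 58.2 to 104 in AG, 24.9 to 102 in TI and 26.1 to 56.1 in TIM, the last lying below AG. For miR-99a it was 11384 to 14737 in AG, 1101 to 11367 in TI and 306 to 25762 in TIM, resting on 6 to 83 passenger reads a library. The lowest value was again that of TIM library 1, with 15004 guide and 49 passenger reads.

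**Figure D5:**
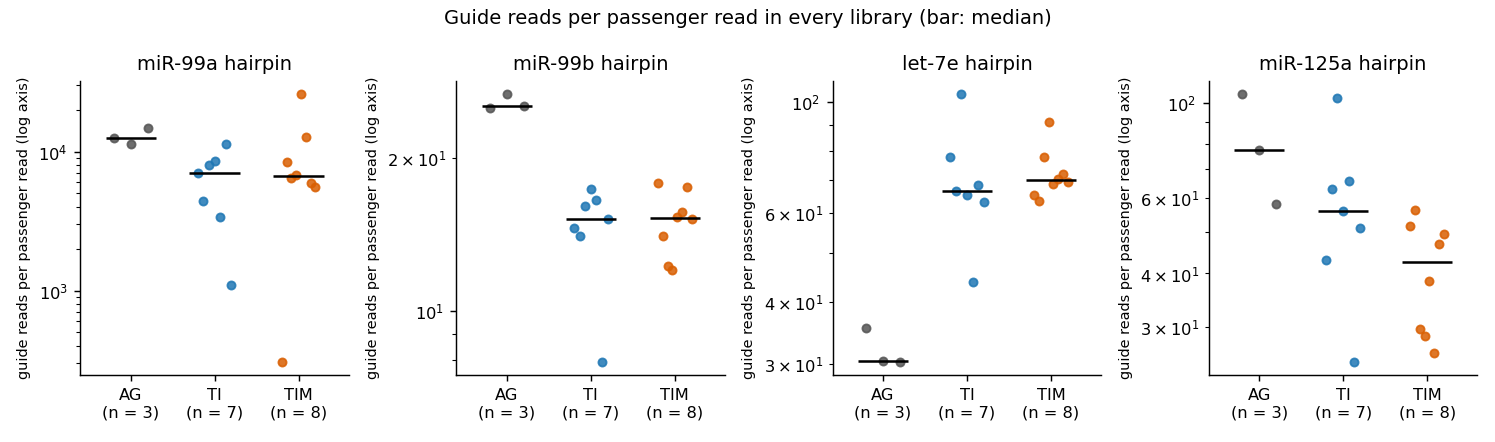
Guide reads per passenger read (log axes) of the hairpins of miR-99a, miR-99b, let-7e and miR-125a in every library, with a bar at the median. The tumor points of miR-99b lie below AG and those of let-7e above AG, and 1 TIM library has 306 guide reads of miR-99a per passenger read.

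The passenger strands also tell the 2 hairpins of miR-125b apart, which the guide cannot. The passenger of the chromosome 16 hairpin, miR-125b-2-3p, had log2 fold changes of -1.35 in TI (limma adjusted p = 0.044) and -1.02 in TIM (limma adjusted p = 0.12). That of the chromosome 9 hairpin, miR-125b-1-3p, had 0.33 in TI (limma adjusted p = 0.62) and 1.196 in TIM (limma adjusted p = 0.054). The share of miR-125b-1-3p in the CPM of both was 21.3%, 16.5% and 14.0% in AG, 17.4% to 60.8% in TI with a median of 46.3%, and 23.4% to 85.1% in TIM with a median of 46.5%. All TIM libraries exceeded the AG libraries in this share, while TI overlapped with AG. The TI libraries nearest to AG, with 19.3% and 17.4%, were TI library 3 and TI library 5. The chromosome 9 passenger that did not fall, miR-125b-1-3p, comes from the same cluster as miR-100-5p, the guide that fell most in TI.

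For each member, the tested miRNAs whose levels followed it most closely over the 18 libraries were sought among 387 with a mean of at least 10 CPM. The group means of log2(CPM + 1) were subtracted first. The members themselves and the let-7 guides and passenger strands of their clusters were left out of these candidates, so likeness to them was not ranked. All points share the scaling of their library, so these correlations are descriptions only. The closest to miR-125a-5p was let-7f-5p (Pearson's r = 0.90, Spearman's rho = 0.85, r = 0.85 without the 2 libraries farthest from the median), followed by miR-146b-5p (r = 0.88). The closest to miR-125b-5p were miR-1843b-3p (r = 0.87, rho = 0.80, r = 0.80 without 2 libraries) and miR-30d-3p (r = 0.81). The closest to miR-99b-5p were miR-30e-3p (r = 0.82, rho = 0.85, r = 0.72 without 2 libraries) and let-7a-1-3p (r = 0.82). Those of miR-100-5p, miR-30a-3p (r = 0.80, rho = 0.67, r = 0.58 without 2 libraries) and miR-204-5p (r = 0.79), rested in part on TIM libraries 1 and 4. The member least closely followed by any of these candidates was miR-99a-5p, with miR-369-3p (r = 0.58, rho = 0.56, r = 0.41 without 2 libraries) and miR-496a-3p (r = 0.58).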

How the data were processed

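Small RNA of adrenal glands and tumors, from about 30 mg of tissue, was sequenced. Per the labels and the submitters' processing notes, the authors used cutadapt 2.8, Bowtie2 2.3.5.1 on mm10, featureCounts 2.0.0 and edgeR 3.40. The deposited signal is CPM per mature miRNA on the library total times its TMM factor. The treatment of reads with several matches is not given in the sources used here. Log2 fold changes, p-values and FDRs of the authors' comparisons stand in the same table and were not used.

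From the low values of a library, the CPM that 1 read is worth was determined. Divided by it, 100% of values came out whole within 0.01, so reads were recovered for the count-based alternatives and for guide and passenger reads. Counting limits cover counting error only.

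The main test was limma 3.58.1 (lmFit, eBayes with trend) in R 4.3.3 of log2(CPM + 1). A miRNA was tested if 3 or more libraries had 1 CPM or more, and all 18 libraries entered 1 model, with Benjamini-Hochberg adjustment over all tested. Fold changes of miRNAs with few reads are understated on this scale. Ratios were tested by exact permutation over all 120, 165 or 6435 arrangements in Python 3.11.15 with numpy 2.4.6, with a two-sided p that doubles the smaller tail. Alternatives were pseudocounts 0.1 and 5, other filters and scalings, only the 2 groups compared, edgeR 4.0.16, DESeq2 1.42.0 and each library left out. The limma, edgeR and DESeq2 fits were run on simulated data for TI against AG, while the exact permutation test was only checked on set values with a known answer. Members, lists, markers and tests were chosen with earlier results of these data known. Named miRNAs are the members, the let-7 guides and passenger strands of their clusters and, for each member, the 2 other miRNAs outside these lists most like it. No 2 libraries were identical. Sequences and hairpin positions are those of RefSeq on GRCm38.p6, the assembly that mm10 comes from.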

Additional observations from a re-analysis of the deposited data

Results flagged for a closer look

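In groups of this size, the highest or lowest library was compared with its neighbours by Dixon's ratio, the gap to the nearest library over the whole range, for 25 values (17 miRNAs and 8 ratios) in TI and TIM. Of the 50 groups compared 4 had a library past the 95% limit, where chance gives about 1 in 20, or 2.5. All but 1 of these are TIM library 1 and share miR-99a-5p, so they are not separate findings. It was high in the log2 ratio of let-7c-5p to miR-99a-5p, at 4.59 with the next library at 1.34 (Dixon's ratio 0.601), and of miR-125b-5p to miR-99a-5p, at 2.65 with the next at -1.21 (Dixon's ratio 0.749). It was low in the log2 ratio of miR-99a-5p to miR-100-5p, at -3.93 with the next at 0.86 (Dixon's ratio 0.608). In the same library miR-99a-5p had 588 CPM, the lowest of all libraries, and miR-100-5p 8962 CPM, the highest of all tumors, while miR-99a-3p had 49 reads, or 1.92 CPM, within the range of the other tumor libraries. In TI, the passenger let-7e-3p was high in TI library 5, at 3.94 in log2(CPM + 1) with the next at 3.004 (Dixon's ratio 0.772), and TI library 5 also had the lowest share of miR-148a-3p.

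The tumor types differed in the log2 ratio of miR-125b-5p to miR-100-5p, by -1.56 (TIM over TI), and of let-7a-5p to miR-100-5p, by -1.28, each with an adjusted p of 0.040 from the two-sided exact permutation test. Both ratios have miR-100-5p below the line. The values in every library overlapped between the types, and neither passed without both TI library 5 and TIM library 1, or without any 1 TI library other than TI library 6.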

How the results depend on the processing

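All 5 members stayed lower in both tumor types under the 11 alternatives and without each library. For miR-99a-5p the log2 fold change ran from -2.90 to -2.17 in TI over the alternatives. The limits were the 3 AG libraries and the scaling. With totals that omit miR-148a-3p, which use no TMM factor either, 3 members passed in TI and 2 in TIM. Leaving out the TMM factor alone gave 3 in TIM. These scalings moved the median of all tested miRNAs, the first by 0.32 in TI and 0.35 in TIM and the second by -0.13 and 0.23, and by 0.42 between TIM and TI. Relative to that median, miR-99b-5p then had -0.73 in TI and -0.84 in TIM under the first and -1.02 and -0.98 under the second. Without 1 library, members passing in TIM ran from 2 to 5 (2 without AG library 1) and all miRNAs from 227 to 383.

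Between TIM and TI, 1 member, miR-100-5p, passed with a pseudocount of 0.1, with median ratio scaling, with miR-148a-3p left out and with DESeq2. Without the TMM factor 3 passed, with miR-125b-5p and miR-99b-5p. Without 1 library 0 or 1 passed, and it was 1 without TI library 4, TI library 7, TIM library 4 or TIM library 8. All called miRNAs were 21 with a pseudocount of 5, 17 at a minimum of 10 CPM, 155 without the TMM factor, 24 with only these 2 groups, 3 with edgeR and 123 with DESeq2, and 24 to 68 without 1 library (24 without TI library 1, 2 or 6, 25 without TIM library 6, 62 without TI library 4 and 68 without TI library 7).

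Directions turned only among differences that did not pass as reported, and no turned value passed. For miR-99a-5p between TIM and TI they were 0.55 without the TMM factor, 0.056 with miR-148a-3p left out, 0.20 with edgeR, 0.10 with DESeq2, 0.22 without TI library 5 and TIM library 1 (an alternative chosen after seeing the data), and -0.27 to 0.47 without 1 library. For miR-99b-5p they were -0.023 with median ratio scaling, -0.010 with edgeR, -0.038 with DESeq2, -0.0085 without those libraries, and -0.047 to 0.14 without 1. For miR-125a-5p it was 0.16 without the TMM factor, and for miR-125b-5p -0.0010 to 0.26 without 1 library. Against AG, miR-99b-3p had 0.44 in TI and 0.48 in TIM with miR-148a-3p left out, 0.0015 in TI with edgeR, 0.23 in TIM without the TMM factor and -0.17 to 0.027 in TI without 1 library, and let-7c-5p had 0.23 in TIM with miR-148a-3p left out.

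For the ratios, 0 passed in each comparison with the p from the absolute difference and without TI library 5 and TIM library 1. Without 1 library, 0 to 5 passed for TI against AG, 0 to 4 for TIM against AG and 0 to 3 for TIM against TI. In both comparisons with AG, leaving out 1 AG library gave 0, an outcome fixed by the design. Between TIM and TI it was 0 without each TI library except TI library 6, and 1 without TIM library 2, 3, 5 or 6. Without those libraries, differences turned to 0.13 for miR-99a-5p to miR-100-5p (TIM against AG), 0.014 for let-7e-5p to miR-99b-5p, -0.034 for let-7c-5p to miR-99a-5p and -0.20 for miR-125b-5p to miR-99a-5p (all TIM against TI). Without 1 library, let-7e-5p to miR-99b-5p ran from -0.084 to 0.16 in TI, from -0.14 to 0.12 in TIM and from -0.21 to 0.11 between them, miR-99a-5p to miR-100-5p from -0.99 to 0.13 in TIM, and between the tumor types let-7c-5p to miR-99a-5p from -0.28 to 0.61 and miR-125b-5p to miR-99a-5p from -0.44 to 0.39. Apart from the loss of calls without an AG library, the cause of these changes was not tested. No paired analysis was possible because replicate numbers are absent from the column names.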
